A study of Mus musculus with 15 samples.

Results

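The 6 immunoglobulin and B cell receptor transcripts described here, Ighm, Igkc, Jchain, Cd79a, Cd79b and Ms4a1, were taken by gene symbol from a table of 47643 symbols measured by RNA sequencing in mouse tibialis anterior, a fast-twitch muscle of the lower leg. Levels are in TPM, the standard unit of transcript abundance that scales each gene to its length and each library to the same total, so levels of different genes can be set side by side. All 15 libraries came from female C57BL/6J mice. The control group (4 libraries) was mock-injected. The lisinopril group (3 libraries), labelled control with lisinopril, was given lisinopril, an inhibitor of angiotensin-converting enzyme that lowers blood pressure. The melanoma group (4 libraries) carried an implanted melanoma that causes cachexia, the wasting of muscle and fat in cancer, and the melanoma plus lisinopril group (4 libraries) carried the tumour and received the drug. Muscles were collected on day 49 after implantation, while the labels give an age of 7 weeks for every mouse. The sources used here name neither the melanoma line nor the dose and duration of the drug. The protocol calls the libraries biological replicates. In the text, the 7 libraries without a tumour are called tumour-free and the 8 with one tumour-bearing.

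The genes were chosen by their levels in these same libraries, including the difference between tumour-bearing and tumour-free muscle and the high values of control 2. Their tumour differences are therefore given as a description, with no p-value, and calls are only counted beside the share of all genes called. Effects of lisinopril were tested. Control 2 is in the control group of these tests, so the drug results of Igkc, Cd79a, Cd79b and Ms4a1, high in control 2, are not independent of the choice. The gene lists used below were also chosen with earlier results of these data known, so their tumour calls and adjusted p-values are a description. Of the 6 genes, 3 (Ighm, Igkc and Cd79b) reached 1 TPM in at least 3 libraries and entered the fit over 11923 genes; Jchain, Cd79a and Ms4a1 did not, and Cd79b entered it only through control 2, melanoma 3 and melanoma plus lisinopril 4.

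An antibody is built from a pair of heavy chains and a pair of light chains, each with a variable segment that binds antigen and a constant region. Ighm encodes the constant region of the mu heavy chain, which makes IgM, and Igkc that of the kappa light chain, the light chain of most mouse antibodies. On the surface of a resting B cell IgM sits with the signalling pair Cd79a and Cd79b, beside Ms4a1 (CD20). A plasma cell, the antibody-secreting descendant of a B cell, loses most of these surface proteins and makes large amounts of heavy chain, light chain and Jchain, the small protein that links IgM and IgA units into polymers. Skeletal muscle is not a tissue in which B cells develop, and its lymphocytes come from blood, lymph or infiltrates.

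A pair of libraries stood apart in B lineage transcripts, and each result that rests on them is given with and without them. Control 2 held 23878 TPM of the adult haemoglobin transcripts against 159 to 4197 TPM in the other 14 libraries, and it was the highest library for 6 of 8 red blood cell markers, 6 of 6 NK cell markers, 8 of 10 T cell markers, 5 of 6 platelet markers and 6 of 6 pan-leukocyte markers. Ptprc (CD45), carried by all white blood cells, was at 7.94 TPM in control 2 and at most 2.72 TPM elsewhere. Lisinopril 1 was not rich in haemoglobin (1582 TPM) or in Ptprc (0.607 TPM) but was high in several immunoglobulin genes. Markers of the labelled tissue, skeletal muscle, summed to between 60769 and 130294 TPM in the 15 libraries. The deposited TPM carry no read depth, so no counting error can be attached to a level, and levels well under 1 TPM are read only as low.

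The B cell identity genes Pax5 and Pou2af1 were high in control 2 alone. Pax5, the factor that keeps B cell identity, was at 2.43 TPM in control 2 and at most 0.0813 TPM elsewhere. Pou2af1, a coactivator of immunoglobulin genes, was at 10.5 TPM in control 2 and at most 0.382 TPM elsewhere. Listed genes that other cells also use were not near 0 elsewhere: Ly86, which macrophages share, was at 14.8 TPM in control 2 and 1.14 to 8.09 TPM in the other 14 libraries, and Ebf1, which fat and stromal cells share, at 3.66 TPM and 1.36 to 3.65 TPM.

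Ighm was not highest in control 2. Its constant region lies on the minus strand of chromosome 12 (mm10, 113418558 to 113422730), and no 30-base word of its annotated transcripts, 1857 in all, occurs in the annotated transcript of any other gene. Igkc lies on the plus strand of chromosome 6 (70726435 to 70726966), inside the non-coding gene Gm30211 on the same strand; none of its 503 words occurs in the transcript of another gene. The first 300 coding bases of exon 1 of Ighm (chr12:113422431-113422730, minus strand) and of Igkc (chr6:70726435-70726734, plus strand) are shown because the levels below rest on these sequences. They are from GENCODE M21 on mm10, with no base in capitals.

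Ighm exon 1: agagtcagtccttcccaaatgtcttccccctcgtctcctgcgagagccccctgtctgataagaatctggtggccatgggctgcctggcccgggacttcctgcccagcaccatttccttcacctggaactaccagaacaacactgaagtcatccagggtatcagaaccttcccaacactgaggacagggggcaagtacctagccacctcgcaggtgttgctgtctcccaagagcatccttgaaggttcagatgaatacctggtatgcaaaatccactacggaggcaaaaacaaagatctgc

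Igkc exon 1: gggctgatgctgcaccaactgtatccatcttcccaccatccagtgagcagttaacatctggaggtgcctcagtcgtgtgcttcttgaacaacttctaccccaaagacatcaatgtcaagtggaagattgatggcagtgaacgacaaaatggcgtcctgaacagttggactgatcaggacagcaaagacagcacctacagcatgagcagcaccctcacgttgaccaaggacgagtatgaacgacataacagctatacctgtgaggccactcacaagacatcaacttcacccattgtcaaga

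Ighm was at 70.5, 72.1, 74.9 and 35.3 TPM in controls 1 to 4. In lisinopril 1 to 3 it was at 167, 28.8 and 83.1 TPM. In melanoma 1 to 4 it was at 2.60, 2.24, 8.24 and 5.82 TPM. In melanoma plus lisinopril 1 to 4 it was at 1.83, 5.79, 20.1 and 2.72 TPM. All 8 tumour-bearing libraries lay below all 7 tumour-free libraries, the nearest pair being melanoma plus lisinopril 3 (20.1 TPM) and lisinopril 2 (28.8 TPM). Control 2, which had far more B cell marker RNA than the other controls, did not stand out in Ighm: its 72.1 TPM lay between controls 1 and 3. Of all 11923 genes, 0.839% had every tumour-bearing library below every tumour-free one. The median was 72.1 TPM over the tumour-free and 4.25 TPM over the tumour-bearing libraries.

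On the log2(TPM + 1) scale Ighm differed by -3.57 ± 0.60 (SE) between melanoma and control, 11.8-fold lower, and the corresponding log2 difference between melanoma plus lisinopril and lisinopril was -3.59 ± 0.65, or 12.0-fold. Averaged over both, the log2 difference was -3.58 ± 0.44, the most negative of the 11923 genes fitted, where the median gene stood at 0.17. Ighm was the 1 member called at an adjusted p under 0.05 in each of these contrasts (limma, Benjamini-Hochberg). The share of all genes called was 0.646% (0.185% lower) for melanoma against control, 1.48% (0.143% lower) for melanoma plus lisinopril against lisinopril and 18% (3.45% lower) for the average. In melanoma plus lisinopril against lisinopril, same-numbered libraries correlated weakly in their deviations (0.129 to 0.195), and the differences above treat them as unpaired. With replicate number as a block, the genes called there went from 177 to 356, with Ighm at -3.47 and still the 1 member called. Since the contrast was known when the gene was picked, nothing is read from these calls. The call was lost for melanoma against control without control 1, control 3, melanoma 1 or melanoma 2, with log2 differences of -3.84 to -3.34 as each library was left out. It was lost for melanoma plus lisinopril against lisinopril without lisinopril 1 or 3 or melanoma plus lisinopril 1, 2 or 4, with differences of -4.26 to -3.01. With sample quality weights the difference for melanoma against control was -2.74. Across every setting tried, the average difference lay between -3.91 and -3.04. In bulk muscle, fewer cells that express a gene and less of its RNA per cell cannot be told apart.

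**Figure D1:**
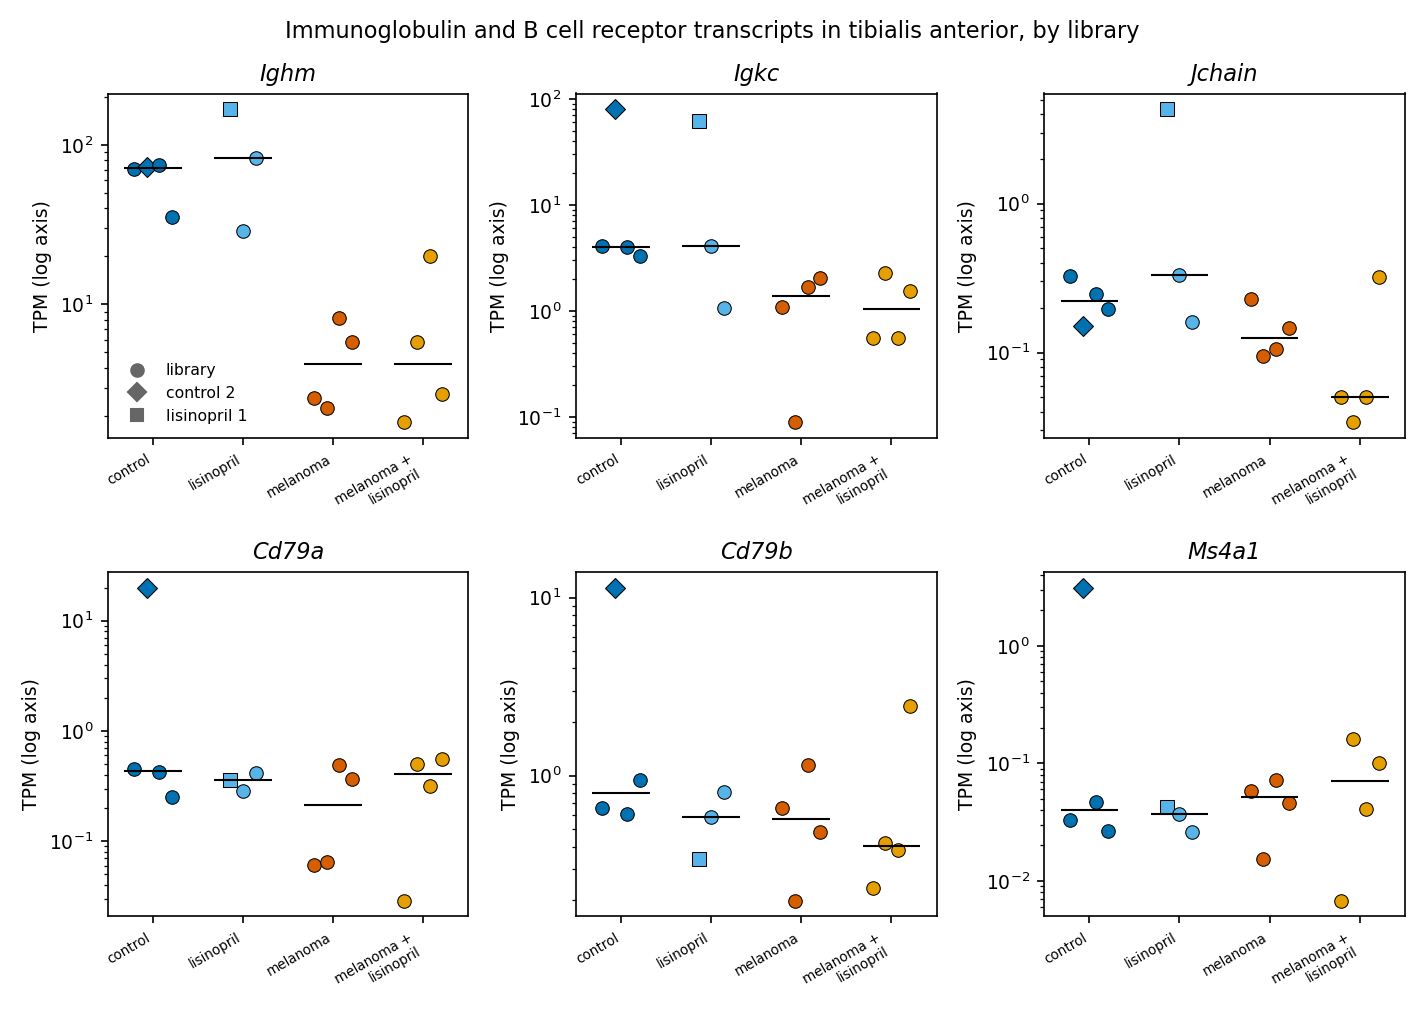
TPM (log axis) of the 6 genes in each of the 15 libraries, by group; horizontal bars are group medians, the diamond is control 2 and the square lisinopril 1. Ighm separates tumour-free from tumour-bearing libraries, while Igkc, Cd79a, Cd79b and Ms4a1 are each highest in control 2.

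Igkc did not follow Ighm library by library. In controls 1 to 4 it was at 4.08, 80.1, 3.96 and 3.32 TPM, and in lisinopril 1 to 3 at 61.2, 4.08 and 1.06 TPM. In melanoma 1 to 4 it was at 1.09, 0.0892, 1.67 and 2.06 TPM. In melanoma plus lisinopril 1 to 4 it was at 0.553, 2.26, 0.552 and 1.53 TPM. Control 2 and lisinopril 1 stood far above the rest, and the other 5 tumour-free libraries ran from 1.06 to 4.08 TPM. The control group lay wholly above the melanoma group, as did 2.89% of all genes, but lisinopril 3 (1.06 TPM) fell inside the range of the melanoma plus lisinopril group. The log2 difference was -2.22 ± 0.97 for melanoma against control, -2.04 ± 1.05 for melanoma plus lisinopril against lisinopril and -2.13 ± 0.72 for the average of both. The first was -1.20 without control 2, the second -0.61 without lisinopril 1, and the average -0.91 without both.

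The ratio of heavy to light chain therefore differed widely. Ighm exceeded Igkc 17.3-fold, 18.9-fold and 10.6-fold in controls 1, 3 and 4, whereas in control 2 the ratio was 0.901. It was 2.73 in lisinopril 1, 7.07 in lisinopril 2 and 78.6 in lisinopril 3. In the melanoma group it was 2.39, 25.1, 4.92 and 2.82, and in the melanoma plus lisinopril group 3.30, 2.56, 36.3 and 1.78. Igkc was under 1 TPM in melanoma 2 (0.0892 TPM) and in melanoma plus lisinopril 1 and 3, so their ratios are rough. Lisinopril 3 gave the widest gap, with 83.1 TPM of Ighm beside 1.06 TPM of Igkc. The lambda light chain did not fill it: Iglc2, its most abundant constant region here, was at 8.79 TPM in control 2 and at most 0.365 TPM elsewhere, with 0 in lisinopril 3. Variable heavy chain segments, 185 symbols in the table, summed to 0.114 TPM in lisinopril 3 and to 2.03 TPM or less in each of the tumour-free libraries other than control 2 and lisinopril 1.

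**Figure D2:**
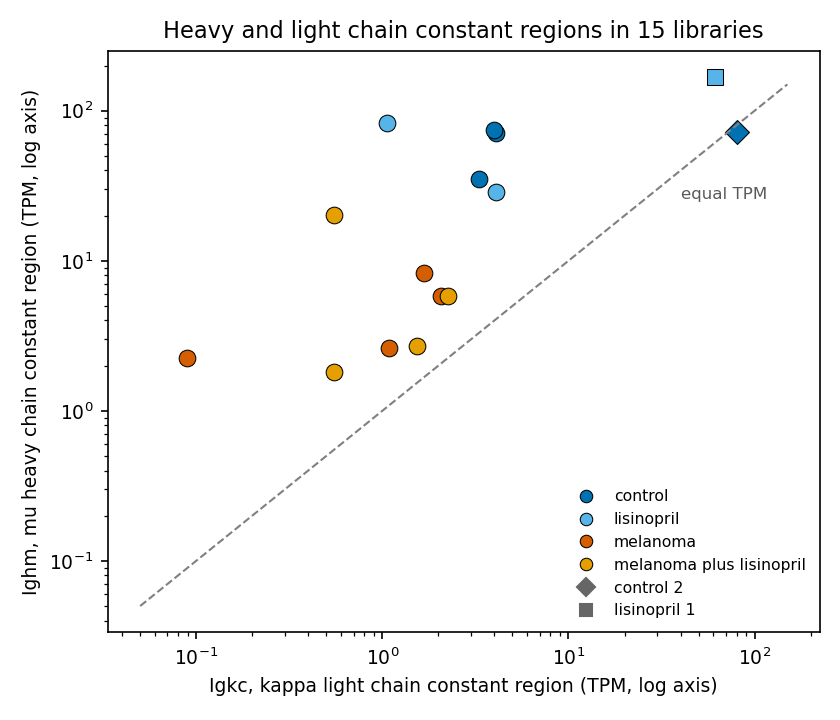
Ighm against Igkc in each of the 15 libraries, both in TPM on log axes; the dashed line marks equal TPM. Control 2 is the 1 library on the Igkc side of the line, and lisinopril 3 (83.1 against 1.06 TPM) lies farthest from it.

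Ighd, the constant region of the delta heavy chain, is read from the same transcription unit as Ighm in mature naive B cells. It was at 15.8 TPM in control 2, which is 22.0% of Ighm there. In the other 6 tumour-free libraries it was at 0.235 to 0.452 TPM, or 0.141% to 1.53% of Ighm. Tumour-bearing libraries held 0.111 to 0.727 TPM of Ighd, which was 0.992% to 15.8% of their lower Ighm. Outside control 2 Ighd was under 1 TPM, so these percentages are rough. Apart from control 2, Ighd thus overlapped between tumour-free and tumour-bearing libraries where Ighm did not.

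Cd79a and Cd79b, the signalling pair of the B cell receptor, were high in control 2 alone. Cd79a (chromosome 7, 24897381 to 24902197) was at 0.449, 20.0, 0.424 and 0.254 TPM in controls 1 to 4 and at 0.358, 0.287 and 0.413 TPM in lisinopril 1 to 3. It was at 0.0612, 0.0652, 0.489 and 0.362 TPM in melanoma 1 to 4 and at 0.0289, 0.501, 0.317 and 0.560 TPM in melanoma plus lisinopril 1 to 4. Once control 2 was set aside, tumour-free (0.254 to 0.449 TPM) and tumour-bearing (0.0289 to 0.560 TPM) libraries overlapped. A share of 12.5% of its 30-base words also occurs in the gene model Gm32220, so reads from those stretches could be divided between them.

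Cd79b (chromosome 11, 106311341 to 106314762) was at 0.658, 11.4, 0.610 and 0.947 TPM in controls 1 to 4 and at 0.339, 0.585 and 0.814 TPM in lisinopril 1 to 3. It was at 0.655, 0.199, 1.15 and 0.483 TPM in melanoma 1 to 4 and at 0.235, 0.420, 0.381 and 2.45 TPM in melanoma plus lisinopril 1 to 4. After control 2 the highest library was melanoma plus lisinopril 4, and the groups overlapped. The log2 difference was -0.84 ± 0.53 for melanoma against control and 0.12 ± 0.57 for melanoma plus lisinopril against lisinopril. Without control 2 Cd79b no longer reached the level required for the fit, and the difference of the group means for melanoma against control was -0.13.

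Ms4a1 (chromosome 19, 11249675 to 11266241), which encodes CD20, was at 3.13 TPM in control 2 and between 0.0068 and 0.160 TPM in the other 14. High Ighm was thus found beside low Cd79a, Cd79b and Ms4a1 in 6 tumour-free libraries: Ighm exceeded Cd79a 3.61-fold in control 2 but 100.4-fold to 467-fold in those 6. In the tumour-bearing libraries that ratio ran from 4.86 to 63.3. Outside control 2 Cd79a was at 0.560 TPM or less, so these ratios are rough.

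Jchain (chromosome 5, 88519809 to 88527891) was at 0.325, 0.150, 0.246 and 0.196 TPM in controls 1 to 4 and at 4.31, 0.332 and 0.160 TPM in lisinopril 1 to 3. It was at 0.230, 0.0943, 0.106 and 0.145 TPM in melanoma 1 to 4 and at 0.0501, 0.0342, 0.05003 and 0.324 TPM in melanoma plus lisinopril 1 to 4. Lisinopril 1 alone was high, and control 2, with its many B cell markers, was low like the other controls. The other 14 libraries lay at 0.332 TPM or less, with tumour-free and tumour-bearing libraries overlapping.

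Control 2 and lisinopril 1 thus had high Igkc with different companions. Control 2 was the highest library for 15 of the 15 measured B cell surface genes, 13 of 13 B cell receptor signalling genes and 10 of 11 B lineage transcription factors. The share of all genes highest in control 2 was not counted, so neither these counts nor those of blood cell markers above have a background. Among the signalling genes, the kinase genes Btk and Lyn were at 12.3 and 17.5 TPM there. Its variable segments were spread over many genes: 82 of 160 kappa segments were above 0 and summed to 73.1 TPM, and the most abundant, Igkv10-96, made up 6.41% of that sum. Of the heavy chain segments, 65 of 185 were above 0, summing to 24.6 TPM, and none made up more than 5.35%.

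Lisinopril 1 was the highest library for 0 of the 15 B cell surface genes and 0 of the 13 signalling genes. Of 10 constant regions other than Ighm and Igkc, 3 were highest there and 5 in control 2. The 3 were class-switched heavy chain regions: Ighg2c was at 21.4 TPM against at most 5.19 TPM elsewhere, and Ighg2b was at 4.23 TPM against at most 0.107 TPM elsewhere. Igha, the constant region of IgA, was at 0.950 TPM in lisinopril 1 and at most 0.477 TPM elsewhere. The other class-switched regions were not highest there: Ighg1 was at 0.776 TPM in lisinopril 1 and 1.11 TPM in control 4, Ighg3 was listed at 0 in lisinopril 1, and Ighe was listed at 0 in every library. Among plasma cell genes, Mzb1, a chaperone of antibody-secreting cells, was at 0.453 TPM in lisinopril 1 but at 2.83 TPM in control 2, and Tnfrsf17 (BCMA) was at 0 in lisinopril 1 and at most 0.206 TPM in any library.

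In lisinopril 1 a single variable segment made up a large part of the sum for each chain. Igkv4-61 (chromosome 6, 69416893 to 69417455, minus strand) was at 19.5 TPM, 75.4% of the 25.9 TPM summed over kappa segments, of which 16 of 160 were above 0. Ighv1-69 (chromosome 12, 115623161 to 115623595, minus strand) was at 4.56 TPM, 49.2% of the 9.27 TPM summed over heavy chain segments, of which 18 of 185 were above 0. In control 2 they were at 0.440 and 0.240 TPM, and both were listed at 0 in the other 13 libraries. In all libraries but control 2 and lisinopril 1, kappa segments summed to at most 3.36 TPM. A high share of 1 segment was not particular to lisinopril 1. In control 4 the most abundant kappa segment made up 76.8% of 3.36 TPM, and the most abundant heavy chain segment 87.4% of 1.86 TPM. In lisinopril 3 a single heavy chain segment made up 100% of 0.114 TPM. With sums this low, these shares are rough.

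Variable segments resemble one another, and 69.97% of the 353 words of 30 bases in the transcripts of Igkv4-61 and 68.6% of the 350 words of Ighv1-69 also occur in other genes, so the division of reads among close segments is uncertain. The second exons of both, which encode the antigen-binding domain, are shown in their unrearranged form from GENCODE M21 (chr6:69416896-69417195 and chr12:115623166-115623465, the first 300 bases, both minus strand). Capitals mark the longest stretch in which no 30-base word is shared with another gene.

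Igkv4-61 exon 2: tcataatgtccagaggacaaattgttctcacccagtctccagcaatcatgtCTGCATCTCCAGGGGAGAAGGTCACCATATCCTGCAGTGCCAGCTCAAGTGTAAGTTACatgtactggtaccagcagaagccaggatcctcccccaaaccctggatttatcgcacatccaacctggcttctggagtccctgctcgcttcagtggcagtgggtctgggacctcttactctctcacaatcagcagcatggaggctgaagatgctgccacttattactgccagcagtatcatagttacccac

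Ighv1-69 exon 2: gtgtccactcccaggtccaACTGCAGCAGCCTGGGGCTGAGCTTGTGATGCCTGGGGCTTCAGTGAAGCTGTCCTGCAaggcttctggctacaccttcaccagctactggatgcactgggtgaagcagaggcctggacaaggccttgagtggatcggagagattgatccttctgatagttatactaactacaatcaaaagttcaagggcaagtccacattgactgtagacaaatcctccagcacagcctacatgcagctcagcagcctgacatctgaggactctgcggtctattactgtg

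**Figure D3:**
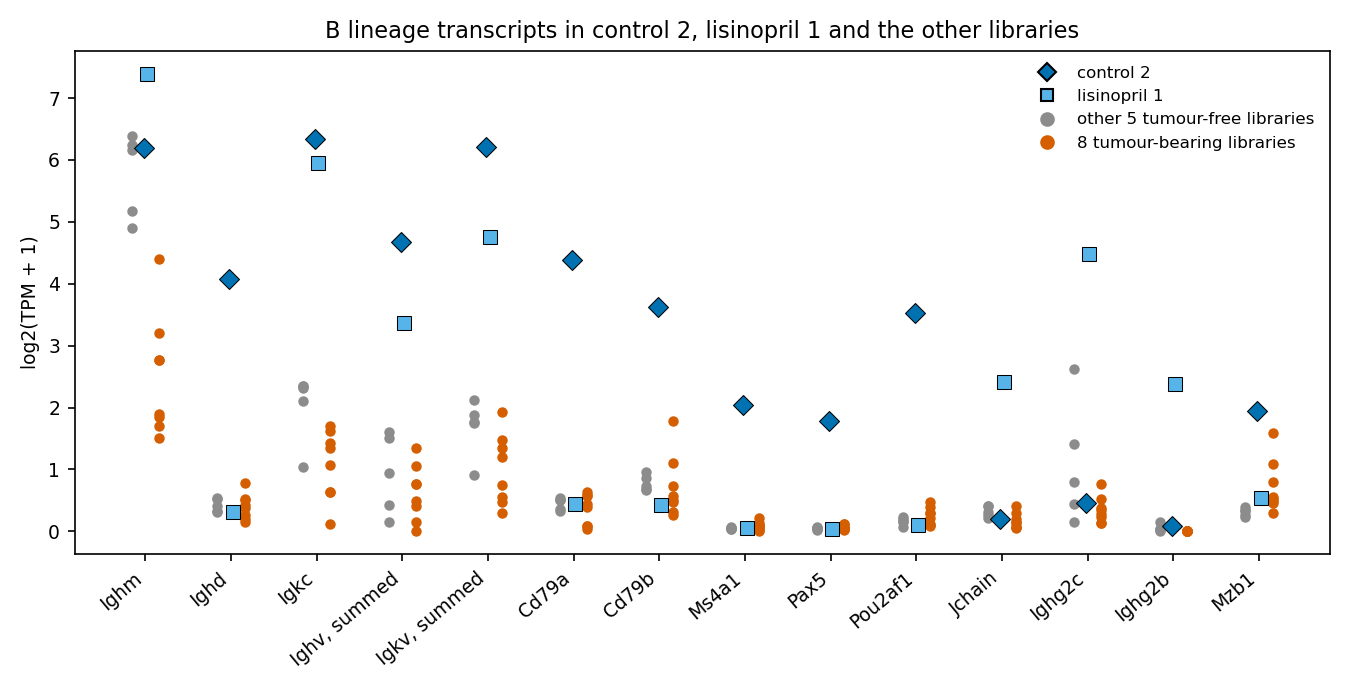
Level as log2(TPM + 1) of 12 B lineage genes and of the summed heavy chain (Ighv) and kappa (Igkv) variable segments, in control 2 (diamond), lisinopril 1 (square), the other 5 tumour-free libraries (grey) and the 8 tumour-bearing libraries (orange). Control 2 alone is high in Ighd, Cd79a, Cd79b, Ms4a1, Pax5 and Pou2af1, and lisinopril 1 alone in Jchain and Ighg2b. Lisinopril 1 is also the highest library in Ighg2c, followed by control 1 (5.19 TPM).

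No effect of lisinopril on these genes was found. In the fit, the log2 difference of Ighm was 0.28 ± 0.65 (SE) for lisinopril against control (95% interval -1.11 to 1.67, adjusted p = 0.887 by limma with Benjamini-Hochberg over 11923 genes). For melanoma plus lisinopril against melanoma it was 0.26 ± 0.60 (interval -1.03 to 1.54, limma adjusted p = 0.999868). For Igkc the corresponding values were -0.16 ± 1.05 (-2.40 to 2.08, limma adjusted p = 0.966) and 0.02 ± 0.97 (-2.05 to 2.10, limma adjusted p = 0.999868). For Cd79b they were -0.85 ± 0.57 (-2.07 to 0.36, limma adjusted p = 0.714) and 0.10 ± 0.53 (-1.03 to 1.23, limma adjusted p = 0.999868). Without control 2 the first difference of Cd79b was -0.14. These intervals are wide, so the data do not show that the drug left the genes unaltered.

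The average lisinopril effect was 0.27 ± 0.44 for Ighm (adjusted p = 0.810), -0.07 ± 0.72 for Igkc (0.973) and -0.38 ± 0.39 for Cd79b (0.717), all by limma. Without control 2 the average difference of Cd79b was -0.022. The tumour difference of Ighm with the drug minus that without it was -0.03 ± 0.89 (limma interaction, adjusted p = 0.999724, 95% interval -1.92 to 1.87). Over all genes, 0% were called in each of the 4 drug contrasts. By limma, 461 of the 11923 genes had an unadjusted p under 0.05 for lisinopril against control, 189 for melanoma plus lisinopril against melanoma, 631 for the average and 151 for the interaction.

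For all 6 genes, the low ones included, the drug difference was also tested by exact two-sided permutation. None of the 18 tests passed, and the smallest adjusted p over the 18 exact permutation tests was 0.938. The largest difference was that of Cd79a, at -1.01 log2 units for lisinopril against control (exact permutation p = 0.457), and without control 2 it was -0.02. Jchain differed by 0.72 in the same comparison (exact permutation p = 0.343), and without lisinopril 1 by 0.02. An exact permutation p cannot fall below 0.0571 with 3 against 4 libraries or below 0.0286 with 4 against 4, and the latter adjusts to 0.514 if it stands alone among the 18 tests. A single gene could therefore pass on its own only in the average of both drug comparisons, where the smallest p is 0.000816.

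**Figure D4:**
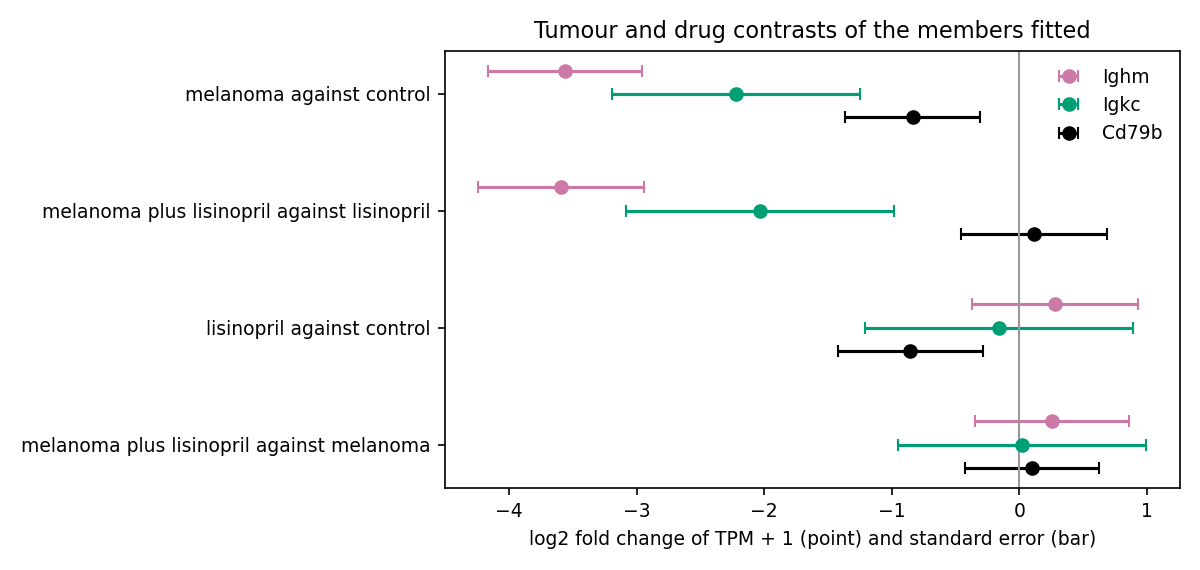
Fitted log2 fold change of TPM + 1 (points) and standard error (bars) of Ighm, Igkc and Cd79b for both tumour contrasts and both drug contrasts; the vertical line marks no difference. Ighm lies at -3.57 and -3.59 in the tumour contrasts and within 1 SE of 0 in the drug contrasts.

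Genes of antigen presentation by MHC class II, which B cells share with macrophages and dendritic cells, were lower with the tumour. Of 10 genes listed, 7 were kept and all 7 fell in the average tumour effect (median log2 change -1.65 against 0.17 over all genes, with 3.45% of all genes called lower). They were the alpha and beta chain genes H2-Aa (-1.79 ± 0.53, adjusted p = 0.0347), H2-Ab1 (-1.85 ± 0.49, 0.0236) and H2-Eb1 (-1.72 ± 0.48, 0.0278), the invariant chain gene Cd74 (-1.65 ± 0.50, 0.0381) and the peptide-loading genes H2-DMa, H2-DMb1 and H2-DMb2 (log2 changes of -0.72, -1.03 and -0.92), all by limma. The 7 calls held without control 2 and under each of 3 rescalings of the libraries, but without both control 2 and lisinopril 1, 2 of the 7 remained. In neither single tumour contrast did any of the 7 pass. The list was chosen with earlier results of these data known, so these calls are a description.

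Cd74 was at 137, 308, 55.6 and 93.8 TPM in controls 1 to 4 and at 90.6, 102 and 61.7 TPM in lisinopril 1 to 3. In melanoma 1 to 4 it was at 32.2, 4.95, 78.2 and 51.7 TPM, and in melanoma plus lisinopril 1 to 4 at 29.5, 26.9, 77.7 and 20.4 TPM. Control 2 was the highest library and melanoma 2 the lowest, and tumour-free and tumour-bearing libraries overlapped. Ptprc did not move with it: its log2 change was 0.09 ± 0.32 (limma adjusted p = 0.862), and 0 of 6 kept pan-leukocyte genes were called. Of 9 macrophage markers, whose cells also carry MHC class II, 3 (Cd163, Lyve1 and Mrc1) rose and none fell, where 14.5% of all genes were called higher. The other 6 did not pass. Among them, C1qa, C1qb, C1qc, Cd68 and Csf1r had log2 changes of 0.90, 0.85, 0.80, 0.61 and 0.58. Adgre1 (F4/80) had a log2 change of -0.09 ± 0.28 (limma adjusted p = 0.828). The part of any cell type in the MHC class II result was not tested.

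**Figure D5:**
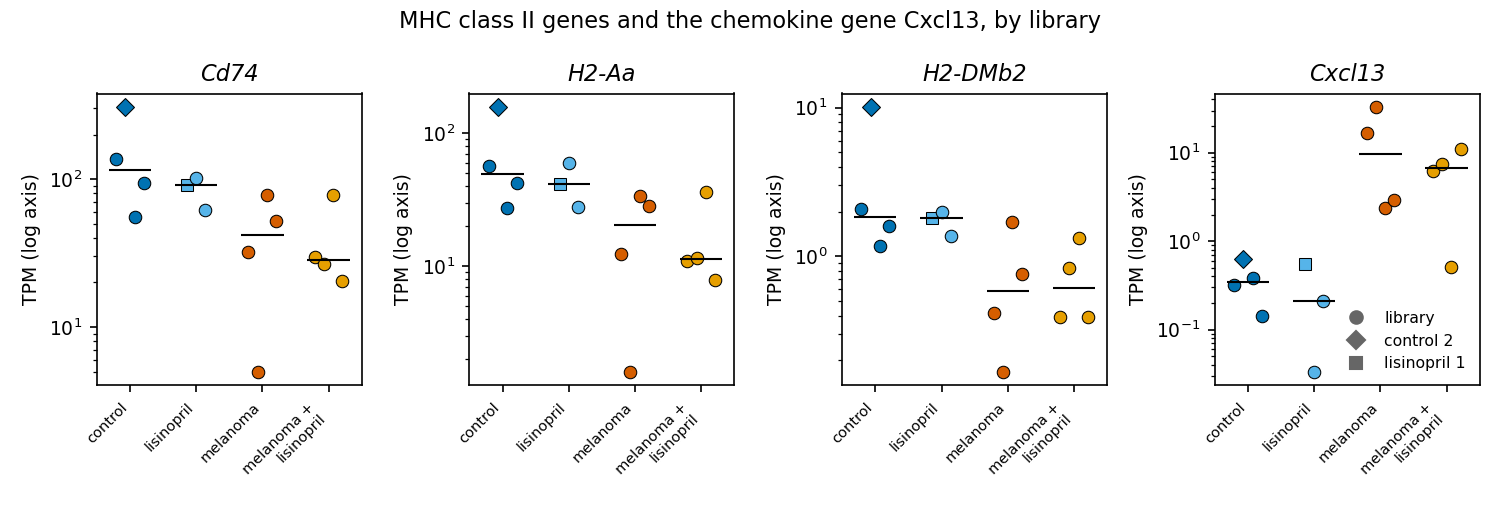
TPM (log axis) of the MHC class II genes Cd74, H2-Aa and H2-DMb2 and of the chemokine gene Cxcl13 in each of the 15 libraries; bars are group medians, the diamond is control 2 and the square lisinopril 1. The class II genes are highest in control 2 and lowest in melanoma 2, and Cxcl13 is higher in 7 of the 8 tumour-bearing libraries than in any tumour-free one.

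The other lists of B lineage genes, also chosen with earlier results known, held few members that entered the fit. Of 10 other immunoglobulin constant regions 1 was kept (Ighg2c, log2 change -1.16 ± 0.52 in the average tumour effect, not called). Ighg2c entered the fit only through lisinopril 1 and controls 1 and 4, all tumour-free, so no adjusted p is given. Without lisinopril 1 its difference of group means was -0.47. Of 15 measured B cell surface genes 1 was kept (Ly86, -0.40 ± 0.35, limma adjusted p = 0.412), and of 8 B cell precursor genes, which include the recombinase genes Rag1 and Rag2, none was. Of 13 B cell receptor signalling genes 5 were kept and 0 called. Of 11 B lineage transcription factors 4 were kept, and Bach2, a repressor of plasma cell differentiation, rose by 0.60 ± 0.20 (limma adjusted p = 0.0486), a call lost under each of the 3 rescalings and without control 2 and lisinopril 1. The average tumour effect called 14.5% of all genes higher and 3.45% lower.

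Of 12 measured plasma cell genes 7 were kept, and Xbp1 rose, with a log2 change of 0.95 ± 0.25 (limma adjusted p = 0.0218). Xbp1 drives the secretory programme of plasma cells and is also a general factor of the unfolded protein response; it was at 33.7 to 61.7 TPM in tumour-free and 60.6 to 235 TPM in tumour-bearing libraries, which overlapped. Of 9 genes for B cell survival and homing 5 were kept and 2 rose. Cxcl13, the chemokine that draws B cells into follicles, rose by 2.50 ± 0.50. It was at 0.0331 to 0.622 TPM in tumour-free libraries and 0.511 to 33.1 TPM in tumour-bearing ones. Cxcl13 thus entered the fit only through tumour-bearing libraries, so no adjusted p is given and nothing is read from its call. Tnfsf13 (APRIL), a survival factor of plasma cells, rose by 0.38 ± 0.12 (limma adjusted p = 0.0467). Of these 2 calls, 1 was kept under each of the 3 rescalings. Beside these 1 of 7 and 2 of 5 genes, 14.5% of all genes were called higher. Tnfsf13b (BAFF), the survival factor of B cells, was at or below 0.477 TPM in every library and was not fitted.

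Of 9 immunoglobulin receptor genes 6 were kept and 1 rose: Fcgr3, an activating IgG receptor of myeloid cells, by 0.83 ± 0.26 (limma adjusted p = 0.0421), beside 14.5% of all genes called higher, a call that was lost under median-ratio rescaling and without the mitochondrial genome. Fcgrt, the receptor that protects IgG from degradation, had a log2 change of -0.01 ± 0.12 (limma adjusted p = 0.946). Genes flanking the heavy chain locus on chromosome 12 did not move with Ighm. Of 13 measured neighbours 9 were kept, with a median log2 change of 0.19 against 0.17 over all genes, and 1 fell, Nudt14 (-0.64 ± 0.17, limma adjusted p = 0.0246). No gene of any list was called in a drug contrast.

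The genes most like Ighm across the libraries were not immune genes. The 5 with the highest Pearson r of log2(TPM + 1) over 15 libraries, immunoglobulin genes left out, were Msrb2 (0.90), Lrtm1 (0.90), Fabp3 (0.90), Oxct1 (0.88) and Iqcg (0.88). Fabp3 carries fatty acids in muscle, Oxct1 is the enzyme of ketone body use and Msrb2 a mitochondrial repair enzyme of oxidised methionine. After each group's mean was subtracted, r fell to 0.47, 0.63, 0.58, 0.44 and 0.52. The libraries share the split into tumour-free and tumour-bearing, so these are descriptions with no test. Lrtm1, for instance, was at 24.8 to 52.5 TPM in tumour-free and 2.27 to 22.3 TPM in tumour-bearing libraries, which did not overlap; the highest tumour-bearing library was melanoma plus lisinopril 3, as for Ighm. The r of Ighm was 0.67 with Igkc and 0.05 with Ptprc, and the latter was -0.30 without control 2. With the MHC class II genes Cd74 and H2-Aa the r of Ighm was 0.74 and 0.75. After group means were subtracted it was 0.48 and 0.47 with these class II genes, similar to Msrb2 and Oxct1. Without control 2 and lisinopril 1, r with the 5 genes was 0.91, 0.91, 0.92, 0.92 and 0.91 over 13 libraries.

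Igkc had other companions: Lyz1 (r = 0.93), B2m (0.91), Cxcl10 (0.91), Igtp (0.89) and Psmb10 (0.88) over the 15 libraries, and 0.94, 0.92, 0.91, 0.84 and 0.85 after group means were subtracted. B2m is the light chain of MHC class I, Psmb10 a subunit of the immunoproteasome, Cxcl10 an interferon-induced chemokine and Igtp an interferon-induced GTPase. Igtp was at 52.8 TPM in control 2, at 38.0 TPM in lisinopril 1 and between 2.52 and 12.9 TPM in the other 13 libraries. Control 2 was the highest library and lisinopril 1 the next for each of the 5 genes, as for Igkc. Without control 2, r was 0.87, 0.92, 0.85, 0.81 and 0.78 over 14 libraries. Without both libraries it was 0.49, 0.85, 0.66, 0.38 and 0.75 over 13, so the likeness of Lyz1 and Igtp rested largely on that pair.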

How the data were processed

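RNA from 15 tibialis anterior muscles in 4 groups was sequenced from stranded mRNA libraries, per the labels' protocols. The authors deposited 1 table of TPM per gene symbol. The build, per the submitters' processing notes, was mm10; aligner and counter were not given in the sources used here. Depth is unknown, so no counting interval is given. Genes with at least 1 TPM in at least 3 libraries (11923 of 47643 symbols) were fitted as log2(TPM + 1), a scale that understates changes of low genes, with limma 3.58.1 (R 4.3.3): 4 group means, eBayes with trend, two-sided tests, Benjamini-Hochberg adjustment, threshold 0.05. Drug differences were also tested by exact permutation (Python 3.11.15, scipy 1.17.1). Both were checked on simulated data. Positions, overlaps and 30-base words came from GENCODE M21 (mm10), in which 94.7% of symbols were found.

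The 6 genes and all gene lists were chosen with earlier results of these data known. Named were the 6 genes, the 5 kept genes most like Ighm and like Igkc, up to 4 called genes of each list in the average tumour effect, up to 3 called in a drug contrast, preset genes (1 of them not reported here) and the 3 variable segments with the highest level. Outside this rule, and named after their values were seen, are Btk, Lyn, Ly86, Ebf1, Ighe, Ighg1, Ighg3, Fcgrt, H2-DMa, H2-DMb1, H2-DMb2 and Glycam1. The same holds for Adgre1, C1qa, C1qb, C1qc, Cd68 and Csf1r. Alternatives were pseudocount 0.1, no filter, a mean of at least 5 TPM, 3 rescalings (median-ratio, quantile, without the mitochondrial genome), a replicate block, only the groups compared, sample quality weights, and leaving out each library or control 2 with lisinopril 1. After the data were seen, differences of Cd79b and Ighg2c means without those libraries and r without both were added. The labels give no source for the replicate numbers. In melanoma plus lisinopril against lisinopril all 3 same-numbered pairs correlated over 0.1 in their deviations (0.129, 0.136 and 0.195). The fit with a replicate block is therefore also given there. These correlations are weak and do not establish pairs, and the main fit treats all libraries as unpaired. In each other comparison at least 1 pair was below 0.1, though melanoma plus lisinopril 3 with melanoma 3 reached 0.359.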

Additional observations from a re-analysis of the deposited data

Results flagged for a closer look

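Each gene's level was compared within each group of 4 libraries, and a library was picked out where its gap to the nearest other library was above Dixon's 95% critical value as a share of the group's range. Of 18 gene and group pairs, 7 were picked out, 4 of them in control 2. The genes were chosen partly for their high values in control 2, so those 4 are a description. In normally distributed values not chosen by their size chance picks out about 5%. TPM need not be normally distributed, so the share that chance picks out here is not known.

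Control 2 was far above the other controls for Igkc (80.1 TPM), Cd79a (20.0 TPM), Cd79b (11.4 TPM) and Ms4a1 (3.13 TPM), with gaps of 0.990, 0.990, 0.969 and 0.993 of the range. The same library was highest in haemoglobin, NK cell, T cell and platelet markers. The part of those cells in these levels was not tested.

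Ighm in control 4 (35.3 TPM) was far below the other controls, with a gap of 0.889 of the range. It was still above all 8 tumour-bearing libraries.

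Melanoma plus lisinopril 4 was the highest of its group for Jchain (0.324 TPM, gap of 0.945 of the range) and for Cd79b (2.45 TPM, gap of 0.916). Its Cd79a (0.560 TPM) was the highest of its group by a small margin, and its Mzb1 (2.01 TPM) was second only to control 2.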

How the results depend on the processing

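The direction of Ighm in the tumour contrasts was the same in each alternative run, with the average between -3.91 and -3.04, and that for melanoma against control at -2.74 with quality weights. The number of the 6 genes called for melanoma against control was 0 rather than 1 with no filter, and 0 to 1 as each library was left out. For melanoma plus lisinopril against lisinopril it was 0 with no filter and without control 2 and lisinopril 1 together, and 0 to 1 as each library was left out. For the average it was 2, Ighm and Igkc, with pseudocount 0.1, the stricter filter, each of the 3 rescalings and without control 2 and lisinopril 1 together, and 1 to 2 as each library was left out (2 without control 2 or lisinopril 3). Calls over all genes moved as well. For melanoma against control, 40 genes were called with no filter, against 77 in the main fit. For melanoma plus lisinopril against lisinopril, 14 were called with no filter and 82 without control 2 and lisinopril 1, against 177. For the average, 1789 were called with the stricter filter and 2417 without control 2 and lisinopril 1, against 2141. The cause of these changes was not tested. Median-ratio rescaling moved the median of all genes in the average tumour effect from 0.17 to -0.01.

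No drug contrast called any of the 6 genes under any alternative, and signs there were not stable. For lisinopril against control, Ighm was -0.22 without control 2 and lisinopril 1, and Igkc 0.017 by median-ratio rescaling and 0.39 with quality weights. For melanoma plus lisinopril against melanoma, quality weights gave -0.025 (Ighm), -0.42 (Igkc) and -0.34 (Cd79b). The average for Igkc was 0.019 by median-ratio and 0.00473 by quantile rescaling. The interaction of Ighm was 0.48 without control 2 and lisinopril 1, and with quality weights that of Igkc was -0.81 and that of Cd79b -0.014.

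Leaving out each library in turn gave, for lisinopril against control, -0.30 to 0.95 (Ighm) and -1.58 to 0.87 (Igkc). For melanoma plus lisinopril against melanoma it gave -0.33 to 0.64 (Ighm), -0.29 to 0.21 (Igkc) and -0.035 to 0.25 (Cd79b, -0.24 to 0.25 in the permutation test). For the average it gave -0.022 to 0.60 (Ighm), -0.78 to 0.45 (Igkc), -0.013 to 0.54 (Jchain), -0.63 to 0.047 (Cd79a) and -0.32 to 0.019 (Ms4a1). For the interaction it gave -0.69 to 0.56 (Ighm) and -0.85 to 1.61 (Igkc).

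Same-numbered libraries correlated in their deviations by -0.15 to 0.36 over 14 pairs, 7 of them over 0.1, and only in melanoma plus lisinopril against lisinopril was every pair over 0.1. With the replicate block the number of the 6 genes called did not change (1, 1 and 1 in the tumour contrasts), the interaction of Ighm was 0.099, and calls over all genes went from 77 to 120, from 177 to 356 and from 2141 to 2172. The fit on only the groups compared could not be run for contrasts that use all 4 groups, and Cd79b had no value under the stricter filter. Without depth, levels under 1 TPM cannot be separated from 0 by counting error.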

Other observations

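Markers of other blood and tissue cells differed in how they moved with the tumour. These lists too were chosen with earlier results known, so their calls are a description. Of 9 neutrophil genes 7 were kept and all 7 rose in the average tumour effect, where 14.5% of all genes were called higher. The alarmin gene S100a8 had a log2 change of 2.22 ± 0.45 (limma adjusted p = 0.00704), Retnlg of 2.27 ± 0.44 (0.00587), S100a9 of 1.80 ± 0.44 (0.0182) and Csf3r, the receptor gene for the neutrophil growth factor G-CSF, of 1.46 ± 0.31 (0.01002), by the same test. The 7 calls were kept without control 2, without control 2 and lisinopril 1, and under each of the 3 rescalings. Retnlg was at 0.858 to 9.06 TPM in tumour-free and 4.02 to 44.3 TPM in tumour-bearing libraries.

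Of the 9 macrophage genes all were kept and 3 rose: the haemoglobin scavenger receptor gene Cd163 by 1.92 ± 0.26 (limma adjusted p = 0.000985), Lyve1 by 1.59 ± 0.24 (0.00150) and the mannose receptor gene Mrc1 by 1.02 ± 0.25 (0.0171). Cd163 was at 0.386 to 2.47 TPM in tumour-free and 1.95 to 10.99 TPM in tumour-bearing libraries, and it was also called in melanoma against control and in melanoma plus lisinopril against lisinopril. No kept gene was called among 6 red blood cell, 4 platelet, 1 NK cell, 3 fat cell and 7 skeletal muscle genes. No T cell or melanocyte gene was kept. Of 2 kept lymph node stroma genes Cxcl13, which entered the fit only through tumour-bearing libraries, was called. Glycam1, a marker of lymph node vessels, was at 0 in every library.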
